A study of Mus musculus with 6 samples.

Results

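The genes for the proteins of the cytosolic large (60S) ribosomal subunit were described in mouse leptotene/zygotene (L/Z) spermatocytes with and without Eef1g. Members were the protein-coding genes whose symbol is Rpl or Rplp followed by a number and an optional a or x, which gave 46 of the 54532 genes in the count table. Paralogs such as Rpl10l and Rpl39l, pseudogenes and unnamed gene models were left out of this set. The 46 genes lie on 17 chromosomes, and 3 of them (Rpl10, Rpl36a and Rpl39) are X-linked.

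L/Z spermatocytes, the germ cells of early meiotic prophase, were sorted by flow cytometry from testes at 12 dpp (days postpartum). There were 3 Control libraries, labelled wild type and taken from littermates, and 3 Eef1g-cKO libraries, in which exons 2 to 7 of a floxed Eef1g allele were deleted by Stra8-GFPCre. This Cre is driven by the promoter of the germ cell gene Stra8, is expressed from 3 dpp and recombines from type A1 spermatogonia onward, so somatic cells of the testis keep the gene. The floxed line was made on a C57BL/6J background, the alleles carried by the controls were not further given, and whether each library came from a separate animal is not stated, so p-values measure only the spread between these libraries. Polyadenylated RNA was copied into full-length cDNA, amplified and sequenced without molecular identifiers, so PCR copies of a molecule count as separate reads.

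The large subunit carries the peptidyl transferase centre, where amino acids are joined, and the tunnel through which the growing chain leaves. Its proteins sit around ribosomal RNA, and those of its acidic stalk recruit translation factors. Cells make these proteins in matched amounts, and the mRNAs of most of them begin with a run of pyrimidines, the TOP motif, through which their translation is set by mTOR signalling and LARP1. In the testis a few of them have paralogs used in meiotic and later germ cells. In the study eEF1G is described as a scaffold of eEF1B, the complex that exchanges guanine nucleotides on the elongation factor eEF1A. The study's mass spectrometry of eEF1G partners brought down ribosomal proteins. The mRNA levels here bear on how the genes for those proteins were expressed in the same cells.

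The pyrimidine run was looked for at the start sites listed by RefSeq on GRCm38.p6, where 34 of the 46 members had an entry. Windows of 30 bases centred on the listed start are shown for members that fell in Eef1g-cKO with a run (Rpl15, Rpl18, Rpl12 and Rplp2), for members that did not pass the test with a run (Rpl35, Rpl35a, Rpl31 and Rpl4), and for members that fell without a run (Rpl22 and Rplp0). Capitals mark a C followed only by C or T on the transcribed strand, at least 6 bases long in all, with only the longest run of a window marked. A run anywhere in the window counted, so it need not lie where the mRNA begins. In Rpl31 and Rpl4 the marked run lies wholly before the listed start, and in Rpl18 and Rpl12 wholly after it. For Rpl35a and Rpl22, which have several listed starts, 1 of them is shown. The Rpl22 windows end before the annotated start of the gene, so their lack of a run does not bear on that start.
Rpl15: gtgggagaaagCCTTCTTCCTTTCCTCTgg
Rpl18: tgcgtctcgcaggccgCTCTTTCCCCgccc
Rpl12: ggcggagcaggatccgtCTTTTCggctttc
Rplp2: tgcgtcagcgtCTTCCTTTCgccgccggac
Rpl35: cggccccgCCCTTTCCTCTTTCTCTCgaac
Rpl35a: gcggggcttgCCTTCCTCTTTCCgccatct
Rpl31: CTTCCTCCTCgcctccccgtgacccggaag
Rpl4: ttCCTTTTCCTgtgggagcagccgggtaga
Rpl22: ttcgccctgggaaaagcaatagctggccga
Rplp0: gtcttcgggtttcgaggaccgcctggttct
On GRCm38.p6 these windows are chr14:18270972-18271001 (minus strand) for Rpl15, chr7:45718056-45718085 (plus) for Rpl18, chr2:32961697-32961726 (plus) for Rpl12, chr7:141447636-141447665 (plus) for Rplp2, chr2:39005117-39005146 (minus) for Rpl35, chr16:33056467-33056496 (plus) for Rpl35a, chr1:39367836-39367865 (plus) for Rpl31, chr9:64173372-64173401 (plus) for Rpl4, chr4:152325711-152325740 (plus) for Rpl22 and chr5:115559452-115559481 (plus) for Rplp0. A run was present in 20 of the 34 members (58.8%) and in 25.5% of the 27025 genes with such an entry. The letters CGGAAG, searched on both strands, where its reverse complement can overlap a run, lay in the 300 bases from 250 before to 50 after a listed start in 22 of the 34 members (64.7%) and in 18.8% of all genes.

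The 6 libraries held between 763133 and 2617648 reads, with the lowest total in Eef1g-cKO replicate 3 and the highest in Eef1g-cKO replicate 2. Eef1g itself was counted at 222, 226 and 212 counts per 1000000 reads (CPM, after TMM scaling of the library sizes) in Control and at 139, 151 and 119 CPM in Eef1g-cKO, and fell by 0.68 on the log2 scale (SE 0.20, edgeR quasi-likelihood adjusted p = 0.029). The count covers the whole gene, exons outside the deletion included. Marker lists moved with genotype. The summed CPM of 16 spermatogonia markers ran from 1792 to 1992 in Control and from 837 to 994 in Eef1g-cKO, with 8 of 10 tested lower and Nanos3 and Lin28a at 0 reads in all Eef1g-cKO libraries. The summed CPM of 12 leptotene and zygotene markers ran from 10500 to 11732 and from 21537 to 28584, with 6 of 11 tested higher and Stra8 lower. Of 7 peritubular and stromal markers, summing to 158 to 278 CPM in Control and 12.4 to 52.5 CPM in Eef1g-cKO, 4 of 5 tested were lower. Of 12 Sertoli markers, summing to 505 to 832 and 415 to 431 CPM, 3 of 6 tested were lower. Ctsl, which did not pass, alone held 270 to 350 CPM in Control and 323 to 405 CPM in Eef1g-cKO of these sums. Pachytene and later markers summed to 160 to 182 CPM and 103 to 146 CPM with 1 of 4 tested lower and Acrv1 at 0 in every library. Most of those sums was Tbpl1, at 111 to 127 and 98.9 to 118 CPM. The lower marker was Piwil1, at 11.5 to 26.0 CPM in Control and at most 0.39 CPM in Eef1g-cKO. Leydig markers summed to at most 10.7 CPM with Cyp17a1 and Hsd3b1 at 0, and blood and macrophage markers ran from 7.28 to 77.9 CPM and from 3.53 to 75.7 CPM. Their part in the results on ribosomal protein genes was not tested.

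Many mRNAs of the large subunit were lower in Eef1g-cKO spermatocytes, and none was higher. Of the 44 members with enough reads to be tested, 42 had a negative log2 fold change, 20 fell at an adjusted p under 0.05 and 0 rose. The 20 lower members were 45.5% of those tested, beside 6.01% of all 8513 tested genes that were lower, while 7.8% of all genes were higher. Without adjustment 32 members had p under 0.05 on the lower side and 0 on the higher side. No share over all tested genes is given for this unadjusted threshold, so the 32 cannot be set against a background. DESeq2 called 21 members lower and 0 higher, and over all tested genes it called 7.19% lower and 8.63% higher. The median log2 fold change was -0.58 over the 44 members and -0.05 over all tested genes, so the median member stood 32.9% below its Control level. In 35 of 44 members every Eef1g-cKO library lay below every Control library, which was true of 18.1% of all tested genes. Past a log2 fold change of -1 as well there were 6 members (13.6%, beside 4.96% of all genes), among them Rpl15, Rpl18, Rpl37a, Rpl12 and Rpl36. In bulk samples fewer cells with high ribosomal protein mRNA and less of it per cell cannot be told apart.

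The count of 20 depended on corrections for sequence composition and on single libraries. It was 10 after a correction for transcript GC content and 13 after a correction for gene length. The share of all genes lower was 4.72% and 5.11% there, beside 6.01% as reported. The count was 12 without Control replicate 1, 13 without Control replicate 3 and 12 without Eef1g-cKO replicate 1. In those fits 2.52%, 2.74% and 4.49% of all genes were lower, and the members' median was -0.56, -0.53 and -0.51. Upper-quartile scaling gave 27, a filter of 10 reads in every library 28, and limma-voom and thinned libraries 25 each. In these 4 fits 7.51%, 7.20%, 8.07% and 6.62% of all genes were lower. The length correction also ended the calls of Rplp0, Rplp1, Rpl8, Rpl41 and Rpl36 (-0.75 to -0.40), and limma-voom that of Rpl30 (adjusted p = 0.0542). There were 5 members lower in the reported fit and in all 23 alternatives, among them Rpl12, Rpl18, Rpl22 and Rpl36a, the last of which was named after its values were seen.

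The members together took a smaller share of the reads in every Eef1g-cKO library than in any Control library, and the share was steadier in Control. Of all reads they held 2.78%, 2.68% and 2.78% in Control replicates 1 to 3 and 1.70%, 1.89% and 1.45% in Eef1g-cKO replicates 1 to 3. Their summed level was 26844, 25811 and 26146 CPM in Control and 17949, 19407 and 17111 CPM in Eef1g-cKO, with no overlap between the groups. The means were 26267 ± 527 CPM and 18156 ± 1162 CPM (SD, n = 3 each), a difference of -30.9%. Against the Control mean the median member stood at -0.62, -0.43 and -0.81 log2 units in Eef1g-cKO replicates 1, 2 and 3, and 41, 40 and 44 of the 44 tested members were below it. Eef1g-cKO replicate 3, the library with the fewest reads, was the lowest of its group for 28 members, and replicate 2, the one with the most reads, was the highest for 28. The part of depth in this was not tested.

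**Figure D1:**
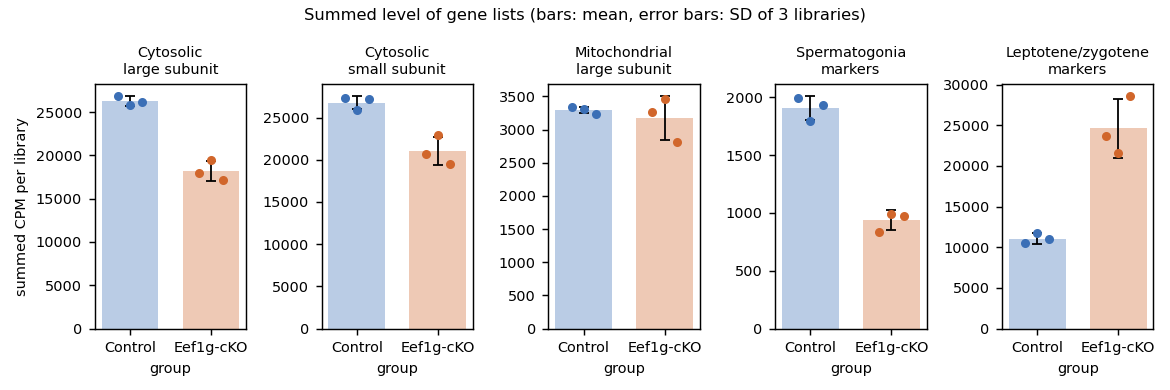
Summed CPM per library (vertical axes, each from 0 with its own scale) for the cytosolic large subunit, cytosolic small subunit, mitochondrial large subunit, spermatogonia markers and leptotene and zygotene markers. Points are libraries, bars are means and error bars are the SD of 3 libraries. The large subunit stands at 25811 to 26844 CPM in Control and 17111 to 19407 CPM in Eef1g-cKO, while the mitochondrial list overlaps between groups.

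Levels differed widely between members in Control spermatocytes. Per length of the gene model, the CPM per kilobase (RPKM) ran from 26.2 for Rpl23a to 3479 for Rplp1 among tested members, with a median of 297. Rplp1, a small acidic protein of the stalk, stood at 3479 ± 438 RPKM (SD, n = 3). Rpl26 followed, then Rpl38, Rpl41 and Rpl4. Of the 43 pairs of neighbours in this order 36 differed by less than the larger SD of the pair, so most adjacent ranks do not differ beyond their spread. With the length of the longest coding transcript in place of the gene model the first 5 were Rplp1, Rpl26, Rpl41, Rpl23 and Rpl38. The order of RPKM means in Control and Eef1g-cKO was similar, with a Spearman rho of 0.96 across the 44 genes, which share libraries and gene lengths and are not independent replicates.

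**Figure D2:**
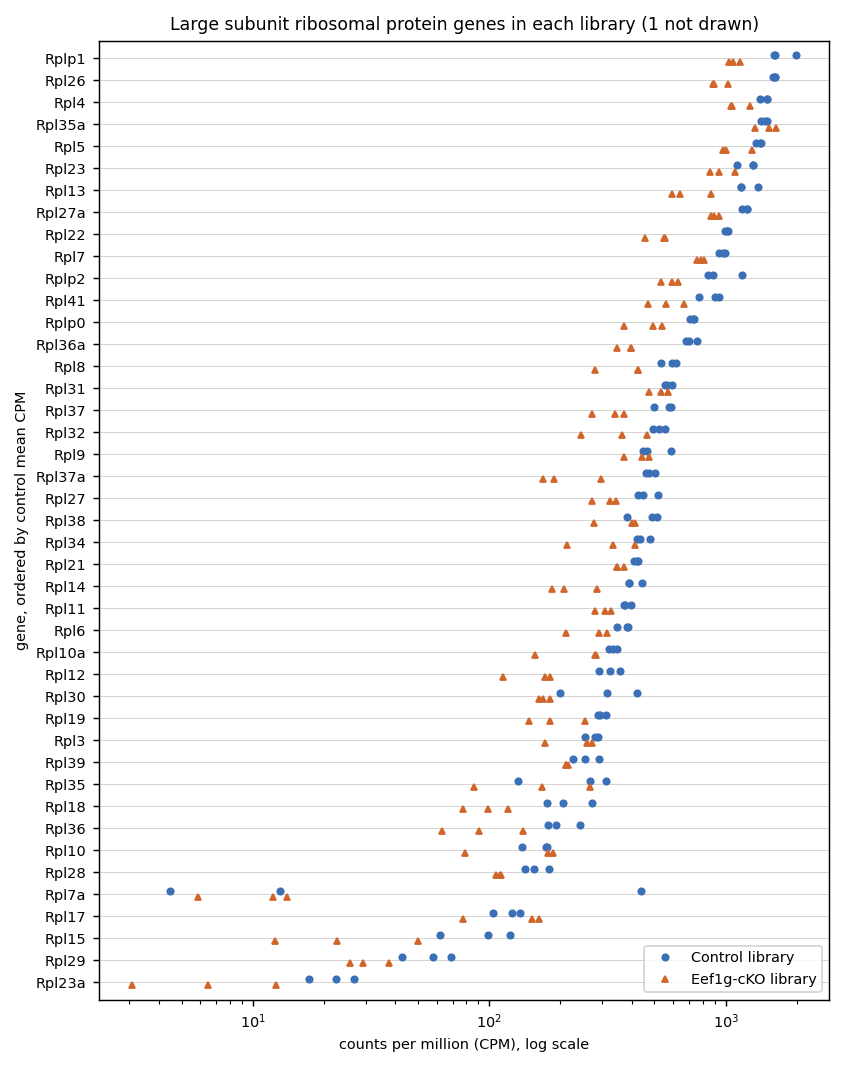
CPM of 43 tested large subunit members in each library on a log axis, ordered by Control mean. Circles are the 3 Control libraries and triangles the 3 Eef1g-cKO libraries. Triangles lie left of all circles for 34 of these members, and Rpl7a has 1 Control library at 440 CPM with the other 5 libraries at 4.48 to 13.9 CPM.

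The acidic stalk, the lateral arm that binds translation factors, was lower in all of its 4 genes, with a median log2 fold change of -0.70. Rplp0, which anchors the stalk to the ribosomal RNA, stood at 708, 730 and 732 CPM in Control and at 493, 541 and 372 CPM in Eef1g-cKO. It fell by 0.62 on the log2 scale (SE 0.16, adjusted p = 0.0156). Rplp1 stood at 1988, 1603 and 1616 CPM against 1077, 1038 and 1154 CPM. Rplp1 binds Rplp2 as a dimer at the stalk tip, and it fell by 0.67 (SE 0.14, adjusted p = 0.00357). Rplp2 stood at 1176, 886 and 846 CPM against 595, 533 and 629 CPM and fell by 0.73 (SE 0.16, adjusted p = 0.00523). Rpl12, at the stalk base, stood at 357, 325 and 290 CPM against 172, 182 and 114 CPM and fell by 1.04 (SE 0.20, adjusted p = 0.00233). For all 4 genes the highest Eef1g-cKO library was below the lowest Control library. With the GC correction Rplp0, Rplp1 and Rplp2 no longer passed (log2 fold changes -0.33, -0.20 and -0.34). Rplp0 also lost its call when any single Control library, or Eef1g-cKO replicate 1, was left out (adjusted p from 0.0535 to 0.073), and Rplp2 without Control replicate 1 (adjusted p = 0.0603).

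The other arm and the 5S particle had no member that passed in the reported edgeR fit or DESeq2, and 1 in each had an unadjusted p under 0.05. Rpl10a, the protein of the L1 stalk through which spent tRNA leaves, stood at 334, 321 and 348 CPM in Control and 281, 282 and 156 CPM in Eef1g-cKO, a difference of -0.46 on the log2 scale (SE 0.21, adjusted p = 0.15). Rpl5 and Rpl11 bind 5S ribosomal RNA and are known for holding back MDM2 when ribosome assembly fails. Rpl5 stood at 1413, 1342 and 1396 CPM against 974, 1008 and 1293 CPM (-0.34, SE 0.15, adjusted p = 0.128). Rpl11 stood at 398, 373 and 374 CPM against 281, 309 and 326 CPM (-0.32, SE 0.16, adjusted p = 0.21). In Rpl10a, Rpl5 and Rpl11 the groups did not overlap. Rpl5 shares 92.5% of its 75-base transcript windows with other annotated genes, the highest share among members, and it passed in 6 of 23 alternatives: library totals alone, upper-quartile scaling, limma-voom, a filter of 10 reads in every library, the GC correction (-0.49, adjusted p = 0.0485) and without Eef1g-cKO replicate 3 (-0.45, adjusted p = 0.0151), with adjusted p from 0.00662 to 0.0485. Rpl11 passed in 1, library totals alone (-0.52, adjusted p = 0.0497).

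Around the peptidyl transferase centre 1 of 3 members fell. Rpl8 stood at 618, 591 and 534 CPM in Control and at 281, 425 and 426 CPM in Eef1g-cKO, with no overlap. It fell by 0.62 (SE 0.18, adjusted p = 0.025), and its call was lost with the GC correction (-0.13) and without Eef1g-cKO replicate 1 (-0.42, adjusted p = 0.163) or any Control library (adjusted p from 0.0582 to 0.12). Rpl3, which lies close to the catalytic centre, stood at 279, 289 and 254 CPM against 271, 260 and 173 CPM, and the groups overlapped (-0.21, SE 0.20, adjusted p = 0.528). X-linked Rpl10, which joins the subunit late in its assembly, stood at 176, 138 and 174 CPM against 187, 177 and 78.8 CPM, with 2 Eef1g-cKO libraries above all Control libraries (-0.11, SE 0.27, adjusted p = 0.834). The sign of Rpl10 turned to 0.20 without Eef1g-cKO replicate 3, and that of Rpl3 to 0.04 with the GC correction.

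No member lining the exit tunnel passed in the reported edgeR fit or DESeq2, and 1 had an unadjusted p under 0.05. Rpl4, whose protein the study followed with an antibody, stood at 1501, 1499 and 1393 CPM in Control and at 1274, 1052 and 1069 CPM in Eef1g-cKO. These values did not overlap, and Rpl4 gave -0.37 on the log2 scale (SE 0.14, adjusted p = 0.0836). It passed in 5 of 23 alternatives: library totals alone, upper-quartile scaling, limma-voom, a filter of 10 reads in every library and thinned libraries (-0.56 to -0.32, adjusted p from 0.0143 to 0.0381). Rpl39, an X-linked short protein of the tunnel, stood at 255, 226 and 292 CPM against 210, 211 and 216 CPM, again without overlap (-0.28, SE 0.19, adjusted p = 0.353). Rpl17 stood at 104, 135 and 124 CPM against 162, 152 and 77.2 CPM, which overlap, and gave 0.13 on the log2 scale (SE 0.27, adjusted p = 0.806). Rpl17 is the member with the highest log2 fold change, which turned to -0.0477 with library totals alone, and 11 named pseudogenes carry 2003 reads against its 1252.

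At the rim of the tunnel, where chaperones and the signal recognition particle dock, 2 of 6 members fell, with a median of -0.69. Rpl22 stood at 1028, 991 and 1017 CPM in Control and at 547, 454 and 551 CPM in Eef1g-cKO, and fell by 0.97 (SE 0.15). Its adjusted p of 0.000316 was the lowest of any member, and it shares 1.4% of its windows with other genes, the lowest share. Rpl26 stood at 1618, 1617 and 1585 CPM against 889, 1028 and 882 CPM and fell by 0.78 (SE 0.14, adjusted p = 0.000941), though not with the GC correction (-0.36, adjusted p = 0.101). Rpl23a stood at 26.7, 22.6 and 17.4 CPM against 6.47, 12.5 and 3.09 CPM, and its log2 difference of -1.46 (SE 0.61, adjusted p = 0.125) did not pass, and 62.3% of its exon bases overlap another gene. Rpl19 stood at 295, 312 and 289 CPM against 181, 255 and 147 CPM (-0.60, SE 0.21, adjusted p = 0.059), and it passed in 8 of 23 alternatives, DESeq2 (adjusted p = 0.0482), limma-voom (adjusted p = 0.0207) and the fit without Eef1g-cKO replicate 2 (-0.84, adjusted p = 0.0133) among them. Rpl35 stood at 133, 267 and 312 CPM against 167, 268 and 86.5 CPM (-0.42, SE 0.40, adjusted p = 0.554), and Rpl31 at 566, 555 and 595 CPM against 568, 531 and 476 CPM (-0.12, SE 0.15, adjusted p = 0.653). The groups overlapped for Rpl35 and Rpl31 and not for the other 4.

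Of the members at the interface with the small subunit, 2 of 4 tested fell. Rpl30 stood at 421, 199 and 315 CPM in Control and at 168, 181 and 162 CPM in Eef1g-cKO, where the lowest Control library lay close to the Eef1g-cKO values. It fell by 0.86 (SE 0.23, adjusted p = 0.0177), and its call was lost without Control replicate 1 (-0.58, adjusted p = 0.176), Control replicate 3 (adjusted p = 0.0696) or Eef1g-cKO replicate 1 (adjusted p = 0.0644). Rpl41, the shortest ribosomal protein, stood at 902, 771 and 935 CPM against 471, 665 and 561 CPM and fell by 0.62 (SE 0.16, adjusted p = 0.0151), with its call lost at the GC correction (-0.26) and without Control replicate 1, Control replicate 3 or Eef1g-cKO replicate 1 (adjusted p from 0.078 to 0.113). Rpl23 stood at 1122, 1310 and 1303 CPM against 863, 1096 and 933 CPM (-0.37, SE 0.15, adjusted p = 0.104; passed in 5 of 23 alternatives), and Rpl9 at 586, 447 and 465 CPM against 445, 475 and 371 CPM (-0.21, SE 0.17, adjusted p = 0.458). Only the values of Rpl9 overlapped between groups among these 4. Rpl24 held 0, 0 and 3 reads in Control and 0, 2 and 0 reads in Eef1g-cKO and was not tested.

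Members with the most negative log2 fold changes that belong to none of these positions included Rpl15, Rpl18, Rpl37a and Rpl36. Rpl15 stood at 61.8, 122 and 99.1 CPM in Control and at 22.6, 49.8 and 12.4 CPM in Eef1g-cKO, the lowest level of any member that fell. It fell by 1.64 (SE 0.41, adjusted p = 0.0119), but not when reads of its named pseudogenes were added (-0.999, adjusted p = 0.0896) or without Control replicate 2, Control replicate 3 or Eef1g-cKO replicate 1 (adjusted p from 0.0533 to 0.0792). Rpl18 stood at 273, 175 and 206 CPM against 98.7, 120 and 77.2 CPM and fell by 1.12 (SE 0.24, adjusted p = 0.00391). In Rpl15 and Rpl18 the highest Eef1g-cKO library stayed below the lowest Control library. Rpl37a, a zinc-binding protein, stood at 472, 458 and 501 CPM against 188, 298 and 168 CPM and fell by 1.11 (SE 0.20, adjusted p = 0.00126). Rpl36 stood at 242, 178 and 191 CPM against 90.6, 139 and 63.3 CPM and fell by 1.02 (SE 0.26, adjusted p = 0.0134), with its call lost at the GC correction (-0.46) and without Control replicate 1 (adjusted p = 0.0988) or Eef1g-cKO replicate 1 (adjusted p = 0.0627).

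**Figure D3:**
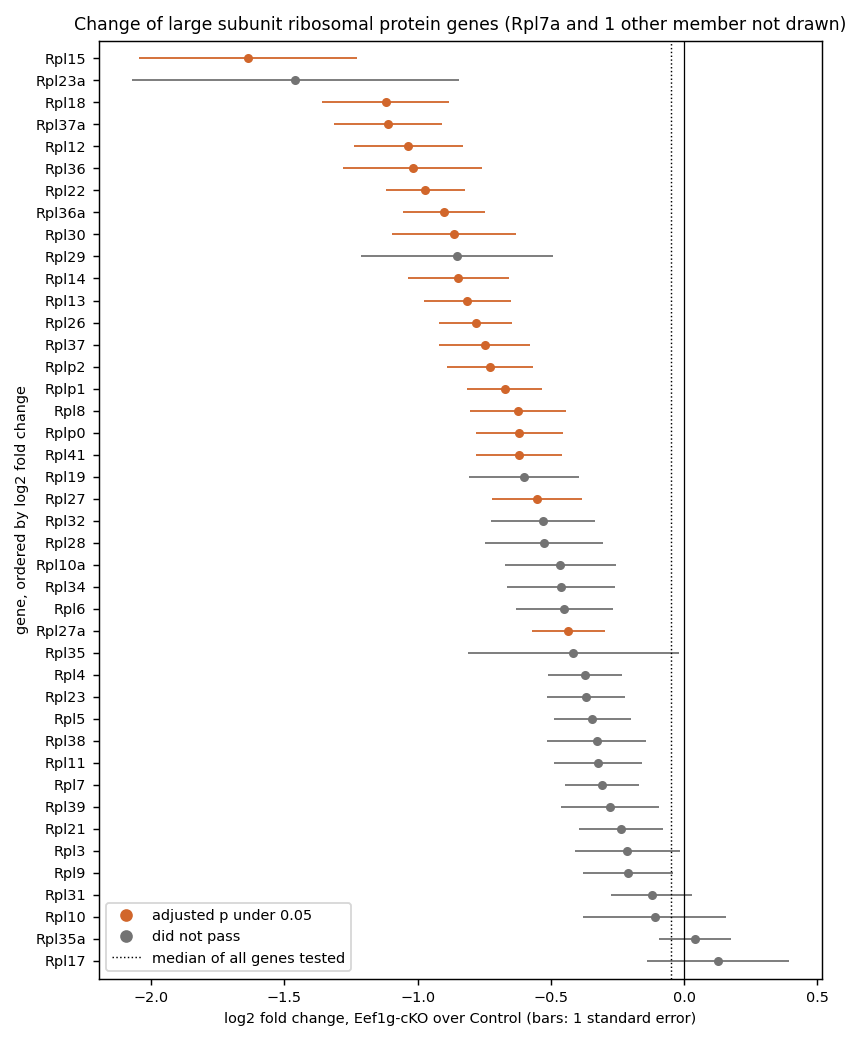
Log2 fold change of Eef1g-cKO over Control with bars of 1 standard error for 42 tested members (horizontal axis), ordered by log2 fold change. Coloured points passed an adjusted p under 0.05, grey points did not, and the dotted line is the median of all tested genes at -0.05. All 19 coloured points lie between -1.64 and -0.43, and 2 grey points, Rpl35a and Rpl17, lie above 0, both of which turn negative with library totals alone.

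Rpl7a, the other member followed with an antibody in the study, cannot be read as a change. Its reads were 17, 838 and 8 in Control and 15, 15 and 9 in Eef1g-cKO, so Control replicate 2 alone sets its log2 difference of -3.98 (SE 2.13, adjusted p = 0.325), which was 0.27 (adjusted p = 0.914) without that library. It passed in 1 of 21 alternatives that tested it, the non-robust estimation (adjusted p = 0.0259). Among the 8513 tested genes it was the only one with at least 100 reads in Control replicate 2 and over 10 times the CPM of every other library. Reads of its 12 named pseudogenes did not show this jump, at 133, 154 and 172 in Control and 168, 295 and 96 in Eef1g-cKO, and 59.5% of its windows are shared with 61 other genes.

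Rpl35a and Rpl38 were the remaining members named by the rule. Rpl35a stood at 1406, 1461 and 1497 CPM in Control and at 1519, 1636 and 1328 CPM in Eef1g-cKO, and the groups overlapped. Its log2 difference of 0.04 (SE 0.14, adjusted p = 0.882) turned negative under upper-quartile scaling and with library totals alone, which shifted the median of all genes to -0.17 and -0.24. Rpl38, known from mouse mutants for its role in the translation of Hox mRNAs, stood at 512, 381 and 486 CPM against 401, 412 and 278 CPM, which overlap (-0.33, SE 0.18, adjusted p = 0.262). Its sign turned to 0.19 with the GC correction. The other 13 tested members had log2 fold changes from -0.90 to -0.24. Of these Rpl36a, Rpl14, Rpl13, Rpl37, Rpl27 and Rpl27a passed as lower and Rpl29, Rpl32, Rpl28, Rpl34, Rpl6, Rpl7 and Rpl21 did not. Rpl13a, with 3, 13 and 5 reads in Control and 0, 7 and 0 in Eef1g-cKO, had too few reads to be tested.

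What the members shared beyond their role was short length and, for many, GC-rich mRNA. Their median gene model length was 1776 bases against 4586 over all tested genes, and their median transcript GC content was 51.8% against 47.6%. The 20 lower members had a median GC content of 53.7% and the other 24 of 49.3%. Over all genes the log2 fold change went down with GC content, with all values from the same 6 libraries. Spearman rho was -0.28 over the 99.9% of the 8513 tested genes with a known GC content, and -0.35 over the 44 members. In each of 5 GC bins the members' median was below that of all genes. The bin under 42% GC held only 1 member, and the bin from 42 to 46% held 4. From 50 to 54% GC it was -0.62 for 11 members and -0.25 for all 1637 genes, and above 54% it was -0.67 for 15 members and -0.43 for all 1407 genes. Under 50% GC 5 of 18 members were lower beside 4.32% of all genes, and at 50% or more 15 of 26 beside 9.03%. The part of GC content in the change was not tested beyond the correction, which left the median at -0.32. Among genes with a mean of at least 100 CPM, 19 of 40 members were lower beside 5.69% of all 2197 such genes, whose median was 0.28.

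**Figure D4:**
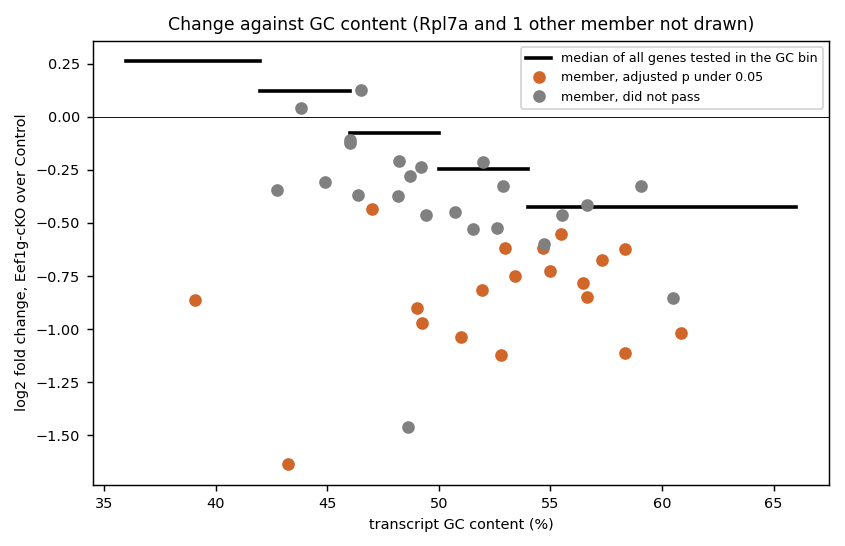
Log2 fold change of Eef1g-cKO over Control (vertical axis) against transcript GC content in percent (horizontal axis) for 42 tested members, coloured where the adjusted p was under 0.05. Black lines give the median of all tested genes in 5 GC bins, the lowest and highest of which extend beyond the drawn line. The lines descend from 0.26 to -0.43, and most points lie under the line of their bin.

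Sequence shared with other genes was common among the members. All 46 members share at least 1 window of 75 bases with another annotated gene, 13 of them over 50% of their windows, and 24 overlap an exon of another gene. The median share was 24.7% in the 20 lower members and 40.0% in the other 24. Of the 18 tested members with under 25% of windows shared, 10 were lower with a median of -0.57, and of the 26 with more, 10 were lower with a median of -0.58. The 186 pseudogenes named after members held 14501 reads, 6.78% as many as the members' 213820. Of 34 such pseudogenes with enough reads, 1 was lower and 0 were higher, with a median of -0.10. Adding their reads to the members gave 20 lower members, 19 of them shared with the reported 20. Of the members with a RefSeq start, 7 of 19 tested with a pyrimidine run were lower (median -0.46). Without a run 8 of 13 tested were lower (median -0.62), a difference that was not tested. Among these 8, the windows of Rpl22, Rpl26, Rpl27, Rpl37 and Rpl37a end before the annotated start of the gene. The Rpl41 window, and among members with a run that of Rpl12, also lie away from it. The split therefore does not show which of these mRNAs begin with a run.

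Among other genes of the ribosome pathway, the small subunit went the same way as the large subunit, with 29 of its 32 tested genes negative. Over all 8513 tested genes 6.01% were lower and 7.8% higher by edgeR, and 7.19% and 8.63% by DESeq2. The mitochondrial, assembly factor and TOP regulator counts below were not above these shares. No share over all genes is given for the unadjusted threshold. The 32 tested genes of the small subunit had 12 lower, 0 higher (16 and 0 by DESeq2, 20 and 1 at an unadjusted p under 0.05) and a median of -0.51, from summed levels of 25876 to 27274 CPM in Control and 19558 to 22885 CPM in Eef1g-cKO. Its largest passing fall was in Rps4x (-1.45, SE 0.43, adjusted p = 0.0284), with Rpsa at -1.13 (SE 0.17, adjusted p = 0.000316), both named after their values were seen. Of 44 tested large subunit genes of the mitochondrial ribosome, which makes proteins inside mitochondria, 2 were lower and 2 higher, with a median of -0.15. Of 28 tested assembly factors of the 60S subunit 1 was lower and 1 higher. Nmd3, the adaptor that exports the subunit from the nucleus, stood at 313, 301 and 268 CPM in Control and 669, 716 and 706 CPM in Eef1g-cKO, and rose by 1.25 on the log2 scale (SE 0.16, adjusted p = 4.2e-05). Ftsj3, a methyltransferase of ribosomal RNA processing, stood at 127, 104 and 76.1 CPM against 37.2, 47.4 and 64.9 CPM and fell by 1.06 (SE 0.31, adjusted p = 0.0284). Of 13 tested regulators of TOP mRNAs, Larp1 and Mtor among them, 0 were lower and 0 higher by edgeR or DESeq2, with a median of -0.02, while 1 lower and 2 higher had an unadjusted p under 0.05. No test of a difference between these lists and the large subunit was made.

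Among the paralogs of members, Rpl39l, the autosomal counterpart of Rpl39, stood at 388, 411 and 423 CPM in Control and at 226, 246 and 190 CPM in Eef1g-cKO. Rpl39l fell by 0.88 (SE 0.17, adjusted p = 0.0023). Rpl10l, the counterpart of Rpl10, stood at 321, 285 and 270 CPM against 203, 198 and 374 CPM (-0.20, SE 0.22, adjusted p = 0.618), and the groups overlapped. Rpl22l1 (0.49, adjusted p = 0.271) and Rpl7l1 (-0.15, adjusted p = 0.806) did not pass. Rpl36al was listed at 0 in every library, and Rpl3l had at most 4 reads.

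**Figure D5:**
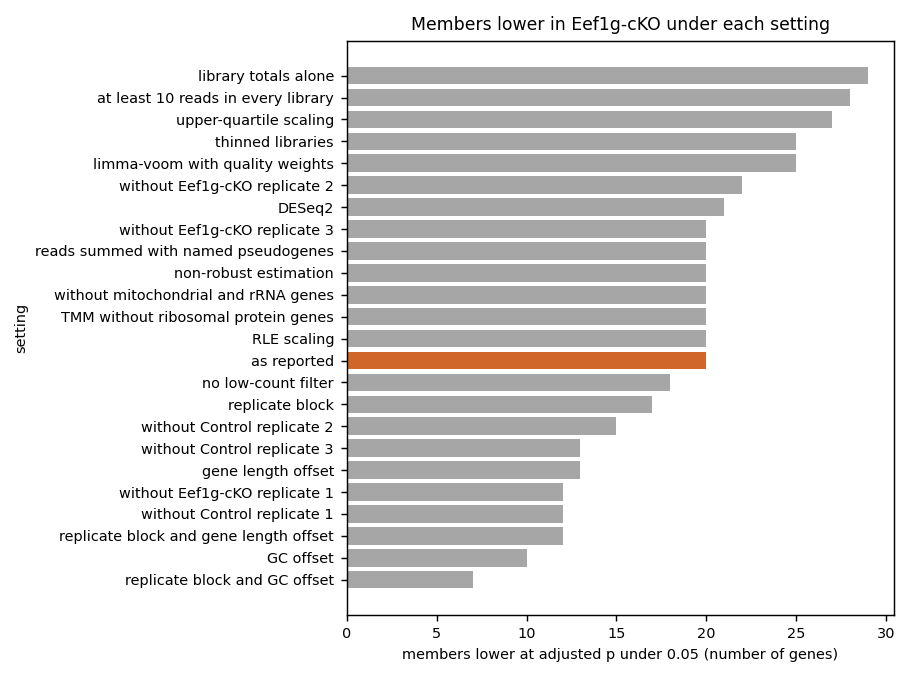
Number of large subunit members lower at an adjusted p under 0.05 (horizontal axis, from 0) in the reported fit (coloured) and in each alternative (grey, vertical axis). The reported fit gives 20, and alternatives run from 7 with a replicate block and GC correction to 29 with library totals alone.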

How the data were processed

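The authors deposited raw counts for each Ensembl gene and library, with no normalisation, from reads treated with fastp, aligned to mm10 with HISAT2 2.2.1 and counted with featureCounts 2.0.6. The submitters also name DESeq2. Strandedness of counting and treatment of multiply aligned reads are not given in the sources used here, so overlapping genes and near-identical copies are uncertain. Columns were matched to samples by name, with groups from the titles.

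Counts were tested with edgeR 4.0.16 in R 4.3.3 by the robust quasi-likelihood F test, TMM scaling and genotype as the only term, after filterByExpr (minimum count 10, minimum total 15) kept 8513 genes with 98.1% of reads. P-values were adjusted by Benjamini-Hochberg over all tested genes. SE was taken as the size of the log2 fold change over the root of F. The script was tested on simulated counts. Alternatives used limma 3.58.1 and DESeq2 1.42.0. GENCODE M21 gave exons, transcripts and GC content (of each gene's longest transcript), and RefSeq the start windows. The members' positions in GENCODE matched the table's for 45 of 46. Members named with values were those of the position lists, Rpl4 and Rpl7a, the 8 most negative and 5 most positive log2 fold changes, the 5 highest RPKM in Control and members below the filter. Members and lists were chosen with earlier results of these data known. Library totals limit the precision, and a count of 3 reads corresponded to between 1.18 and 4.63 CPM. Single genes that are not reported here stay in the counts, sums and medians of their lists.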

Additional observations from a re-analysis of the deposited data

How the results depend on the processing

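Under the 17 alternatives other than leaving out a library, no member was higher, and the members' median stayed 0.27 to 0.66 log2 units below that of all genes. The members lower (20 as reported) were 13 with a gene length correction, 12 with it and a replicate block, 10 with a GC correction, and 7 with it and a replicate block. The share of all genes lower (6.01% as reported) was 5.11%, 4.12%, 4.72% and 3.39% in these fits. Lower members past a log2 fold change of -1 (6 as reported) were 11 with library totals alone, 3 with either length correction and 2 with either GC correction. As reported this limit was passed by 13.6% of tested members and 4.96% of all genes. No share over all genes is given for it in any alternative, those leaving out a library included. The counts past it there cannot be set against a background. The median (-0.58 as reported) was -0.37 with the length correction, -0.32 with the GC correction and -0.34 with the latter and a block. The replicate block alone gave 17 lower members, without Rpl8 (-0.64, adjusted p = 0.0507), Rpl27 and Rpl27a. Deviations of same-numbered libraries from their group means correlated at -0.04, 0.02 and -0.05. With 3 libraries per group these values cannot show whether same-numbered libraries were paired, which the labels do not state. Leaving out 1 library gave 12 to 22 lower members, 2 to 7 past the fold limit, 0 higher, and medians from -0.69 to -0.45. Of all genes 2.52% to 6.86% were lower in those fits. Over 31 named members and 23 alternatives, 614 values kept direction and side of the threshold, 49 lost their call, 26 gained one and 19 changed sign.

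Signs turned for Rpl35a under upper-quartile scaling (-0.0822), library totals (-0.15), at least 10 reads in every library (-0.10), the GC correction (-0.064) and the GC correction with a block (-0.0679). They turned for Rpl17 with library totals (-0.0477) and at least 10 reads in every library (-0.0053), for Rpl10 with limma-voom (0.0584) and the length correction (0.0229), and for Rpl31 with the length correction (0.0623) and with it and a block (0.0615). With the GC correction, alone and with a block, Rpl38 gave 0.19 and 0.18 and Rpl3 gave 0.0407 and 0.0127. Without 1 library Rpl10 ran from -0.27 to 0.20, Rpl35a from -0.0146 to 0.15, Rpl17 from -0.0138 to 0.40 and Rpl7a from -4.55 to 0.27. The cause was not tested in any of these.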
